A study of Mus musculus with 9 samples.

Results

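The enzymes that write and erase DNA methylation in mouse were examined as 9 genes: Dnmt1, Dnmt3a, Dnmt3b, Dnmt3l, Uhrf1, Tet1, Tet2, Tet3, and Tdg. They were taken by name, for what their products do, and all 9 were found among the 25965 genes of the deposited expression table. E14 mouse ESCs of the 129/Ola background, grown in serum and LIF without feeder cells, were transfected with siRNA and again after 48 h, and RNA was collected at 96 h. The 3 groups were control siRNA, Dppa2 siRNA, and Dppa4 siRNA, each with 3 polyadenylated RNA libraries, for 9 libraries in all. Their titles end in rep3A, rep3B, and rep3C, and they are called A, B, and C here. The labels name the same line for all groups and no edit, while the study's text describes its knockdown cells as carrying fluorescent reporters of MERVL and Zscan4c. The knockdowns were transient and lowered each target without removing it. Dppa2 and Dppa4 are partner proteins of pluripotent cells that bind DNA and chromatin, and the comparison asks whether their loss alters the RNA of the methylation machinery. The estimated number of reads on genes was 19.5 to 40.2 Mreads per control siRNA library, 16.8 to 25.5 Mreads in Dppa2 siRNA libraries, and 20.7 to 28.6 Mreads in Dppa4 siRNA libraries. The study calls its replicates biological, but neither it nor the labels say that libraries A, B, and C came from separate cultures, so p-values measure only the spread between these libraries, part of which may be technical.

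Methyl groups on cytosine in mouse DNA are found mostly where a cytosine is followed by a guanine (CpG). Dnmt3a and Dnmt3b add them to unmethylated sites with the help of Dnmt3l, which has no catalytic activity of its own, and Dnmt1, brought to newly replicated DNA by Uhrf1, copies them to the daughter strand. The Tet enzymes oxidize methylcytosine, and Tdg cuts out the more oxidized bases for base excision repair. ESCs grown in serum express both sides of this system and hold high methylation.

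The targeted transcripts were read first, as log2 expression, a normalized level that is not corrected for gene length. Dppa2 was at 7.26, 7.16, and 6.94 in control siRNA libraries A, B, and C, at 3.36, 3.86, and 3.68 with Dppa2 siRNA, and at 7.01, 7.17, and 7.03 with Dppa4 siRNA. Dppa4 was at 7.02, 7.11, and 7.06 with control siRNA, at 7.11, 7.07, and 7.17 with Dppa2 siRNA, and at 6.16, 6.14, and 6.09 with Dppa4 siRNA. The RNA of each target was lowest in the libraries that carry its name, with no overlap with the other groups. In limma, Dppa2 fell by 3.49 with its own siRNA (SE 0.14, adjusted p = 2.13e-05) and Dppa4 fell by 0.93 with its own (SE 0.08, adjusted p = 0.000281). Protein was not measured in these libraries. In the study's Western blots Dppa4 siRNA also lowered Dppa2 protein strongly, and Dppa2 siRNA lowered Dppa4 protein mildly. Neither siRNA therefore stands for the loss of its target protein alone.

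None of the 9 methylation genes passed the test in either knockdown. Differences from control siRNA were fitted with limma over all 9 libraries and adjusted over the 14601 genes that exceeded -2 on the log2 scale in 3 or more libraries, and all 9 methylation genes were among those tested. With Dppa2 siRNA, 0 of the 9 had an adjusted p below 0.05, beside 3.44% of all tested genes (2.27% lower and 1.16% higher). At an unadjusted p below 0.05 there were also 0 of 9, beside 15.7% of tested genes. With Dppa4 siRNA, 0 of the 9 passed, again beside 3.44% of tested genes (2.34% lower and 1.10% higher). Dnmt3a, Dnmt3l, and Tet3 had an unadjusted p below 0.05 there, 3 of the 9, beside 18.0% of tested genes. The stricter high-confidence call, which also asks for p below 0.05 in an intensity difference filter, took 0 of the 9 in both knockdowns, beside 1.91% and 1.95% of tested genes.

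Groups were also read for overlap. With Dppa2 siRNA they did not overlap for 1 of the 9 genes, Tdg, whose knockdown libraries all lay above those of control siRNA, and for 17.8% of all tested genes. With Dppa4 siRNA it held for 3 of the 9, Dnmt3a and Dnmt3l above control siRNA and Tet3 below, and for 23.9% of tested genes. Centred on the reference genes, Tdg and Tet3 overlapped with control siRNA, which left 0 and 2 of the 9. Over all tested genes that centring left 2419 and 3428 of 14601 without overlap. With Dppa2 siRNA 2 did not overlap without control siRNA library A, B, or C or Dppa2 siRNA library C. Over all genes tested in these settings 3576 of 14436, 3451 of 14438, 4394 of 14432, and 2986 of 14548 did not overlap. With Dppa4 siRNA 4 did not overlap without control siRNA library A or Dppa4 siRNA library C. Over all genes tested in those 2 settings 4722 of 14436 and 5186 of 14544 did not overlap. Without control siRNA library C, 4394 and 6056 of the 14432 genes then tested did not overlap, against 2595 and 3491 of 14601. The median log2 difference of the 9 genes from control siRNA was -0.02 after Dppa2 knockdown and 0.03 after Dppa4 knockdown, where the medians of all tested genes were 0.02 and 0.03. The 2 comparisons share the control siRNA libraries. In bulk RNA, fewer cells that express a gene cannot be told apart from less of its RNA per cell.

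**Figure D1:**
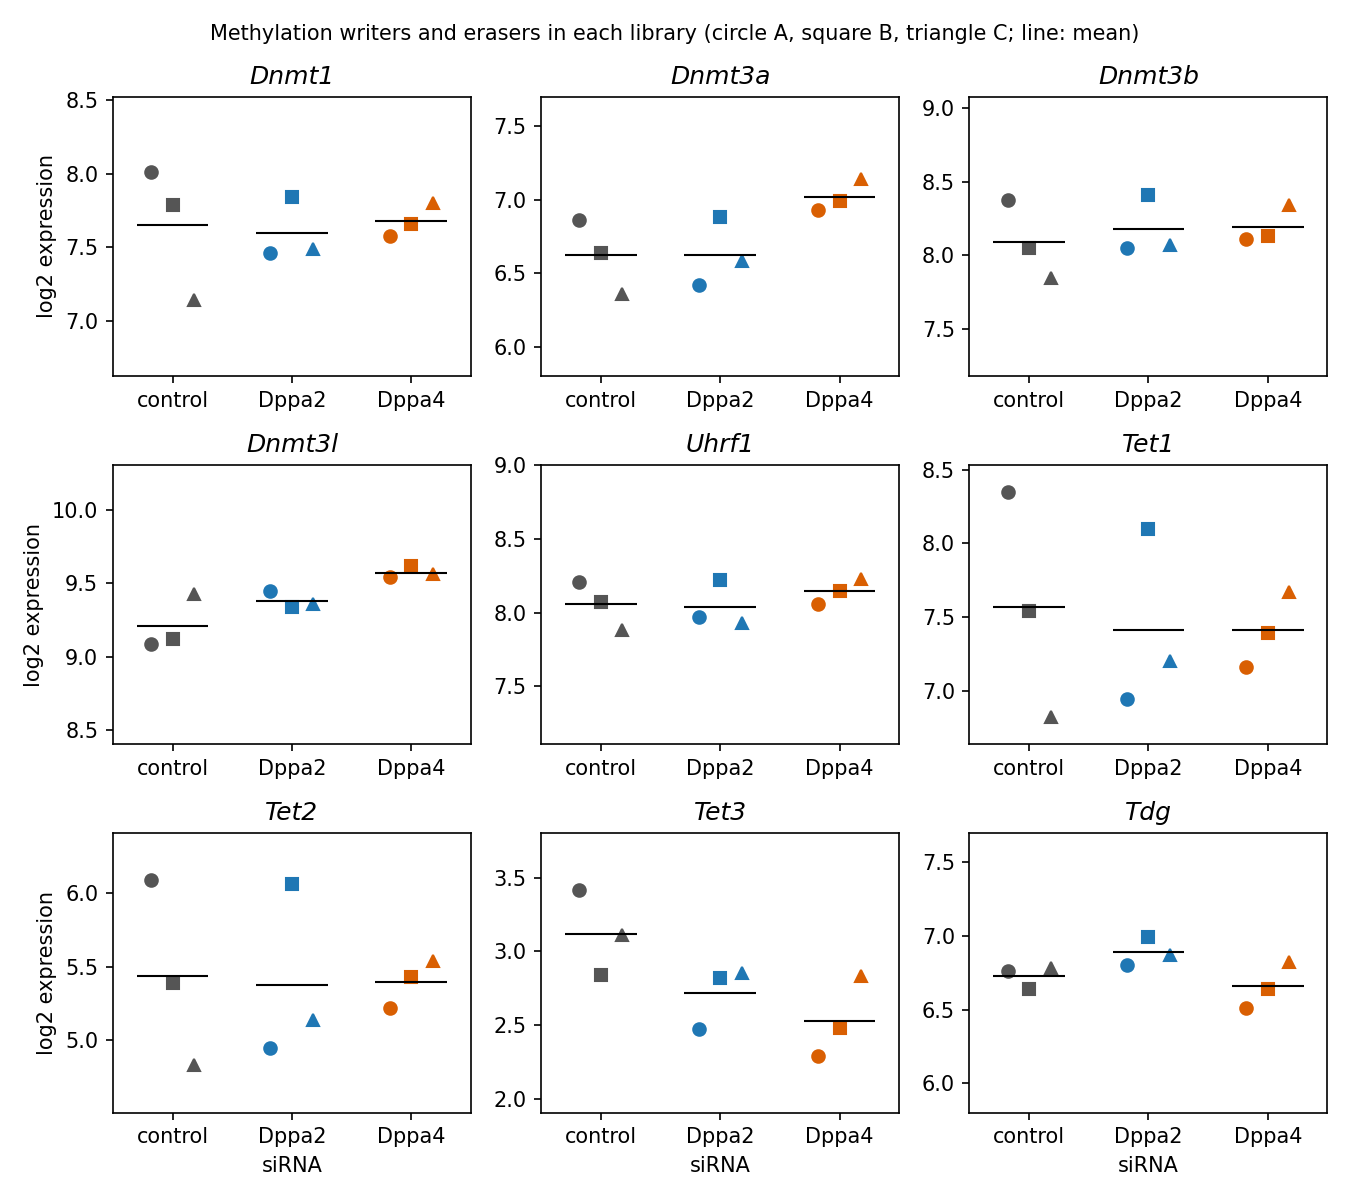
Log2 expression of the 9 methylation genes in each library, by siRNA group on the horizontal axis, with circles, squares, and triangles for libraries A, B, and C and a line at the group mean. Dppa4 siRNA libraries lie above all control siRNA libraries for Dnmt3a (6.93 to 7.14) and Dnmt3l (9.54 to 9.62) and below them for Tet3 (2.29 to 2.83), while Tet1 spans 6.82 to 8.35 within control siRNA alone.

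Maintenance methylation rests on Dnmt1 and Uhrf1. Dnmt1 lies on the minus strand of chromosome 9 from 20907206 to 20959888 (GRCm38, as for all positions). Its log2 expression was 8.01, 7.79, and 7.14 in control siRNA libraries A, B, and C, 7.46, 7.84, and 7.49 with Dppa2 siRNA, and 7.58, 7.66, and 7.80 with Dppa4 siRNA. The highest and the lowest of the 9 values were both control siRNA libraries, so each knockdown lay within the control range. The log2 difference from control siRNA was -0.05 with Dppa2 siRNA (95% interval -0.52 to 0.42, limma adjusted p = 0.976) and 0.03 with Dppa4 siRNA (95% interval -0.44 to 0.50, limma adjusted p = 0.974). Both differences are small beside the SD of 0.45 among the 3 control siRNA libraries.

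Uhrf1, which recognizes DNA methylated on a single strand and recruits Dnmt1, lies on the plus strand of chromosome 17 from 56303321 to 56323486. It was at 8.21, 8.07, and 7.88 with control siRNA, at 7.97, 8.22, and 7.93 with Dppa2 siRNA, and at 8.06, 8.15, and 8.23 with Dppa4 siRNA. All 9 values fell within 0.35 log2 units, the narrowest range of the 9 genes, and the groups overlapped. The log2 difference was -0.02 with Dppa2 siRNA (95% interval -0.28 to 0.25, limma adjusted p = 0.985) and 0.09 with Dppa4 siRNA (95% interval -0.17 to 0.36, limma adjusted p = 0.782). Of the 50-base stretches of its transcripts 15.4% also occur in Gm15953 or Gm5648, so part of its reads cannot be assigned to Uhrf1 alone.

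De novo methylation is the work of Dnmt3a, Dnmt3b, and their cofactor Dnmt3l. Dnmt3a lies on the plus strand of chromosome 12 from 3806007 to 3914443. Its log2 expression was 6.86, 6.64, and 6.36 in control siRNA libraries A, B, and C, 6.42, 6.88, and 6.58 with Dppa2 siRNA, and 6.93, 6.99, and 7.14 with Dppa4 siRNA. The Dppa4 siRNA libraries were the 3 highest of the 9, above every library of both other groups, while those of Dppa2 siRNA and control siRNA overlapped. The log2 difference from control siRNA was 0.40 with Dppa4 siRNA (SE 0.15, 95% interval 0.05 to 0.75, n = 3), and the adjusted p from limma was 0.211, so it did not pass. With Dppa2 siRNA the difference was 0.01 (SE 0.15, 95% interval -0.34 to 0.36, limma adjusted p = 0.994).

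The Dnmt3a call depended on how the values were processed. With merged exons of 16.6 kb it is longer than 98.3% of tested genes, and libraries differed in how expression varied with length. After each library was corrected for gene length and GC content, a step added once the values had been seen, Dnmt3a was at 6.55, 6.58, and 6.59 with control siRNA, at 6.55, 6.71, and 6.70 with Dppa2 siRNA, and at 7.02, 7.03, and 7.07 with Dppa4 siRNA. The SD within groups went from 0.205 to 0.0528, and the Dppa4 siRNA libraries were still the 3 highest. The corrected difference with Dppa4 siRNA was 0.47 (SE 0.07, 95% interval 0.31 to 0.63), which passed in limma (adjusted p = 0.00627), and across all alternatives tried its adjusted p ranged from 0.006 to 0.445. The corrected difference with Dppa2 siRNA was 0.08 (limma adjusted p = 0.631). After the correction 749 of 13075 tested genes passed with Dppa4 siRNA, against 502 of 14601 before it.

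Dnmt3b, the other catalytic de novo enzyme, lies on the plus strand of chromosome 2 from 153649450 to 153687730. It was at 8.38, 8.05, and 7.85 with control siRNA, at 8.05, 8.41, and 8.07 with Dppa2 siRNA, and at 8.11, 8.13, and 8.34 with Dppa4 siRNA. The 3 groups overlapped, and both the second highest value and the lowest were control siRNA libraries. The log2 difference was 0.09 with Dppa2 siRNA (95% interval -0.26 to 0.44, limma adjusted p = 0.920) and 0.10 with Dppa4 siRNA (95% interval -0.25 to 0.45, limma adjusted p = 0.827). Dnmt3c shares 9.8% of the 50-base stretches of Dnmt3b transcripts, and the table lists a Dnmt3bos transcript beside the Dnmt3b name, so part of its reads may not be its own.

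Dnmt3l lies on the plus strand of chromosome 10 from 78041947 to 78063622. Its log2 expression was 9.09, 9.12, and 9.43 in control siRNA libraries A, B, and C, 9.45, 9.34, and 9.36 with Dppa2 siRNA, and 9.54, 9.62, and 9.56 with Dppa4 siRNA. The Dppa4 siRNA libraries were the 3 highest, and the Dppa2 siRNA libraries overlapped only with control siRNA library C. The log2 difference was 0.36 with Dppa4 siRNA (SE 0.10, 95% interval 0.13 to 0.60), with a limma adjusted p of 0.104, and 0.17 with Dppa2 siRNA (SE 0.10, 95% interval -0.06 to 0.41), with a limma adjusted p of 0.527. Neither passed. Control siRNA library C decided the call with Dppa4 siRNA, since without it the difference was 0.47 and the limma adjusted p was 0.0261, in a range of 0.026 to 0.343 over all alternatives. That library was also the lowest of the 9 for Dnmt1, Dnmt3a, Dnmt3b, Uhrf1, Tet1, and Tet2, 6 of the methylation genes, and for the summed ESC markers.

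The table gives Dnmt3l a transcript identifier that belongs to Aire, the autoimmune regulator, which overlaps the start of Dnmt3l on the opposite strand. The counting kept the strands apart, and Aire has values of its own, 5.78, 5.69, and 5.61 with control siRNA, 6.12, 6.54, and 6.24 with Dppa2 siRNA, and 6.53, 6.60, and 6.43 with Dppa4 siRNA. Aire, a gene looked at after its values were seen, lay above control siRNA in every knockdown library. It rose by 0.61 with Dppa2 siRNA (limma adjusted p = 0.0292), a call that was lost when any 1 of 8 libraries was left out (0.49 to 0.65), with only the 6 libraries compared (0.61), and after the length and GC correction (0.57), and by 0.83 with Dppa4 siRNA (limma adjusted p = 0.00693). Whether reads of the 2 genes were mixed was not tested.

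**Figure D2:**
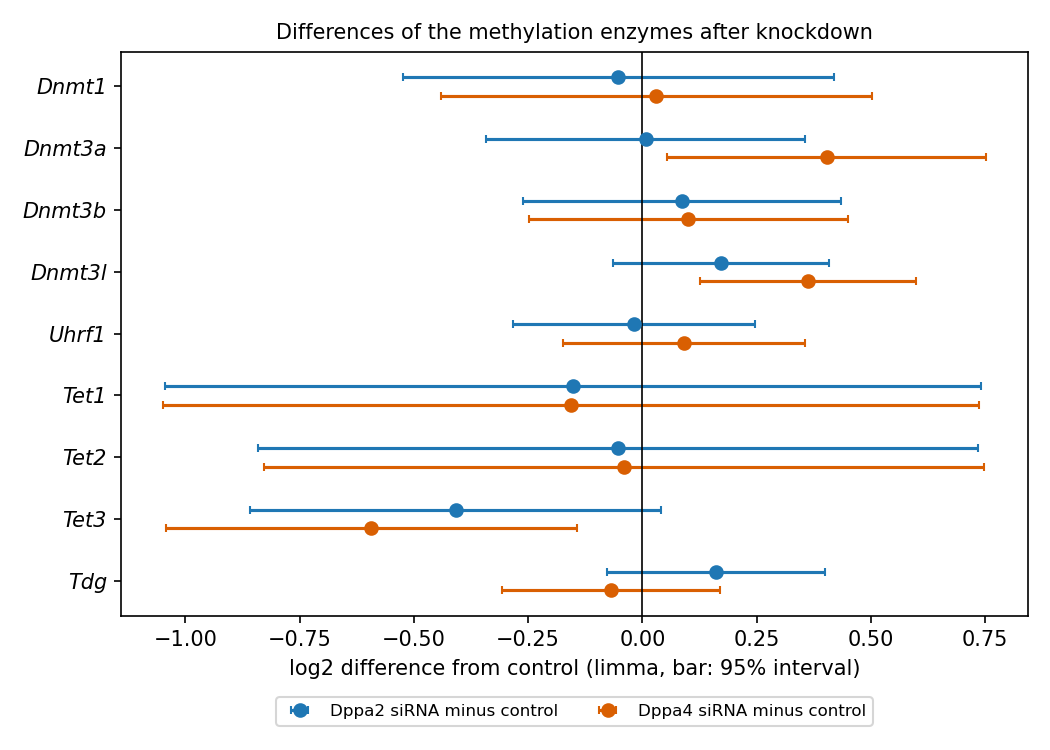
Log2 differences from control siRNA for the 9 methylation genes, with limma estimates as points and 95% intervals as bars, in blue for Dppa2 siRNA and orange for Dppa4 siRNA. The interval leaves out 0 for Dnmt3a (0.05 to 0.75), Dnmt3l (0.13 to 0.60), and Tet3 (-1.04 to -0.14) with Dppa4 siRNA, before adjustment over all genes, and the bars of Tet1 and Tet2 are the widest.

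The Tet genes start the removal of methylation, and Tet1 is the main one of them in ESCs. It lies on the minus strand of chromosome 10 from 62804570 to 62899118. Its log2 expression was 8.35, 7.54, and 6.82 in control siRNA libraries A, B, and C, 6.94, 8.10, and 7.20 with Dppa2 siRNA, and 7.16, 7.39, and 7.67 with Dppa4 siRNA. Both ends of the range of 1.53 were control siRNA libraries, and the groups overlapped throughout. The log2 difference was -0.15 with Dppa2 siRNA (95% interval -1.05 to 0.74, limma adjusted p = 0.953) and -0.16 with Dppa4 siRNA (95% interval -1.05 to 0.74, limma adjusted p = 0.910). Without control siRNA library A the 2 differences were 0.24 and 0.23, so these data give Tet1 no direction. A difference of -1.0 lies inside both intervals, as does one of 0.7, so changes of that size were not excluded.

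Tet2, on the minus strand of chromosome 3 from 133463679 to 133544390, varied between libraries much as Tet1 did. It was at 6.09, 5.39, and 4.83 with control siRNA, at 4.95, 6.06, and 5.14 with Dppa2 siRNA, and at 5.22, 5.43, and 5.54 with Dppa4 siRNA. Control siRNA library A and Dppa2 siRNA library B were again the 2 highest and control siRNA library C the lowest, as for Tet1. The log2 difference was -0.05 with Dppa2 siRNA (95% interval -0.84 to 0.73, limma adjusted p = 0.985) and -0.04 with Dppa4 siRNA (95% interval -0.83 to 0.75, limma adjusted p = 0.979). Both signs turned after the length and GC correction, to 0.05 and 0.10.

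Tet3, best known as the oxidase of the zygote, lies on the minus strand of chromosome 6 from 83362373 to 83441678. It was at 3.42, 2.84, and 3.11 in control siRNA libraries A, B, and C, at 2.47, 2.82, and 2.85 with Dppa2 siRNA, and at 2.29, 2.48, and 2.83 with Dppa4 siRNA. All Dppa4 siRNA libraries lay below all control siRNA libraries, although Dppa4 siRNA library C at 2.83 was next to control siRNA library B at 2.84. With Dppa2 siRNA the groups overlapped by 1 library, C. The log2 difference was -0.59 with Dppa4 siRNA (SE 0.20, 95% interval -1.04 to -0.14), with a limma adjusted p of 0.152, and -0.41 with Dppa2 siRNA (SE 0.20, 95% interval -0.86 to 0.04), with a limma adjusted p of 0.377. Neither passed, nor did they under any alternative tried, where the adjusted p ranged from 0.084 to 0.452 and from 0.192 to 0.803. The Tet3 values rest on an estimated 161 to 401 reads per library, the fewest of the 9 genes, against 15460 to 31693 for Dnmt3l.

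The spread of Tet1 and Tet2 within groups was unusual for their level. The SD within groups was 0.584 for Tet1 and 0.511 for Tet2, larger than in 99.1% and 97.0% of the tested genes within 0.5 log2 units of each, where the median over all tested genes was 0.242. Dnmt1 had an SD of 0.295, Tet3 of 0.262, Dnmt3b of 0.206, and Uhrf1 of 0.141. Dnmt3l (0.116) and Tdg (0.115) had the smallest, with 25.9% and 27.0% of genes of like expression varying less. The genes whose values moved most like those of Tet1 over the 9 libraries were Mll3, Slc39a10, and Usp45, with root mean square distances of 0.059, 0.069, and 0.073 after each gene was centred on its mean. All 3 were highest in control siRNA library A and lowest in control siRNA library C, which follows from choosing them by nearness to Tet1. Slc39a10 and Usp45 are not among the longest genes, at 6.10 kb and 6.23 kb (longer than 71.1% and 72.0% of tested genes), and have a GC content of 44.5% and 39.4%, beside 43.7% for Tet1. No length or GC content was available for Mll3, the nearest gene.

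This order of libraries was also that of a property of the whole transcriptome. The slope of a gene's deviation from its mean on the log2 of its exon length was highest in control siRNA library A (0.169 per doubling of length), then Dppa2 siRNA library B (0.0956), and lowest in control siRNA library C (-0.109). Tet1, at 15.5 kb longer than 97.8% of tested genes, had all 9 libraries in the same order as this slope. Dnmt1 had 7 libraries at the same place, Tet2 5, Dnmt3b and Tet3 3 each, Dnmt3a and Uhrf1 2 each, and Dnmt3l and Tdg 1 each. The slopes of the Dppa4 siRNA libraries were -0.0591, -0.0234, and 0.0362 and those of the Dppa2 siRNA libraries -0.0751, 0.0956, and -0.0568, within the control range. After the correction for length and GC content the SD within groups was 0.305 for Tet1 and 0.249 for Tet2. It did not fall for every gene, since it went from 0.141 to 0.172 for Uhrf1 and from 0.206 to 0.208 for Dnmt3b. The slope on GC content, fitted together with length, was lowest in control siRNA library A (-0.219 per 10 points of GC) and Dppa2 siRNA library B (-0.158), the 2 libraries with the highest length slope, and highest in Dppa4 siRNA library A (0.154). Length and GC content were not tested apart, nor was what made the libraries differ in either slope.

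**Figure D3:**
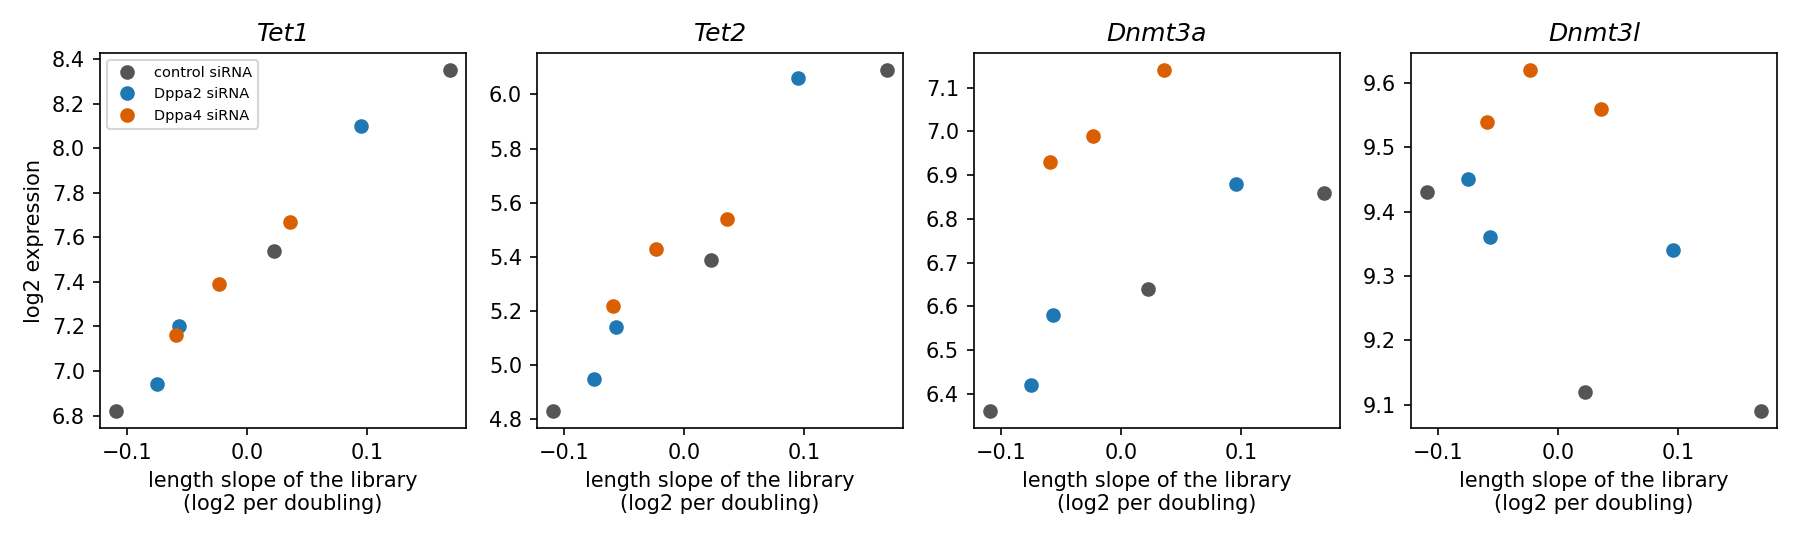
Log2 expression of Tet1, Tet2, Dnmt3a, and Dnmt3l in each library against that library's length slope in log2 units per doubling of exon length, with points coloured by siRNA group. Tet1 lies in the order of the slope from 6.82 in control siRNA library C to 8.35 in control siRNA library A, while the Dnmt3a values of Dppa4 siRNA (6.93 to 7.14) lie above those of libraries with a like slope.

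Tdg, the glycosylase that removes oxidized methylcytosine, lies on the plus strand of chromosome 10 from 82629828 to 82650799. It was at 6.76, 6.64, and 6.78 with control siRNA, at 6.80, 6.99, and 6.87 with Dppa2 siRNA, and at 6.51, 6.64, and 6.82 with Dppa4 siRNA. Dppa2 siRNA libraries lay above control siRNA by a narrow margin, and Dppa4 siRNA libraries overlapped with both groups. The log2 difference was 0.16 with Dppa2 siRNA (SE 0.11, 95% interval -0.08 to 0.40, limma adjusted p = 0.572) and -0.07 with Dppa4 siRNA (SE 0.11, 95% interval -0.31 to 0.17, limma adjusted p = 0.825). Of its 50-base stretches 35.5% are shared with other annotated genes, among them the pseudogene Tdg-ps, the largest share of the 9 genes, so its level is the least certain in this respect.

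The knockdowns were also set against each other. Over all tested genes 3 passed in limma between Dppa4 siRNA and Dppa2 siRNA (0.0205%), the 2 targets and 4930486L24Rik, which was named after its values were seen and had a difference of 3.26 (adjusted p = 0.0106). Of the 9 methylation genes 0 passed, 1 (Dnmt3a) had an unadjusted p below 0.05, beside 6.76% of tested genes, and 2 (Dnmt3a and Dnmt3l) did not overlap between the knockdowns, beside 17.6%. Without Dppa2 siRNA library B 6 of the 9 did not overlap, nor did 6872 of the 14527 genes then tested. The log2 difference of Dppa4 siRNA from Dppa2 siRNA was 0.40 for Dnmt3a (95% interval 0.05 to 0.75, limma adjusted p = 0.698) and 0.19 for Dnmt3l (95% interval -0.04 to 0.43, limma adjusted p = 0.802). It was -0.23 for Tdg (95% interval -0.47 to 0.01, limma adjusted p = 0.759) and -0.18 for Tet3 (95% interval -0.63 to 0.26, limma adjusted p = 0.945). A separation seen with 1 siRNA was therefore not shown to be particular to it.

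Levels of the methylation genes were compared with each other per length, as linear expression per kb of merged exon. In control siRNA cells Dnmt3l was highest at 199.6 ± 26.8 (SD, n = 3), followed by Uhrf1 at 62.8 ± 7.17, Dnmt3b at 54.1 ± 10.2, and Dnmt1 at 28.1 ± 8.10. Then came Tdg at 19.7, Tet1 at 13.5 ± 7.0, Dnmt3a at 5.96 ± 1.01, Tet2 at 2.74 ± 1.20, and Tet3 at 0.530. The same order of group means held with Dppa2 siRNA and with Dppa4 siRNA. Uhrf1 and Dnmt3b were neighbours whose libraries overlapped in all 3 groups, and in control siRNA Dnmt1 overlapped with Tdg and Tdg with Tet1. Dnmt3l was 3.18-fold above Uhrf1 in control siRNA, 3.61-fold with Dppa2 siRNA, and 3.83-fold with Dppa4 siRNA, and Tet2 was 5.18-fold, 6.63-fold, and 7.16-fold above Tet3. With the longest transcript as the length, Tdg lay above Dnmt1 with Dppa2 siRNA and Dnmt3a above Tet1 with Dppa4 siRNA, in both cases with overlapping libraries.

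**Figure D4:**
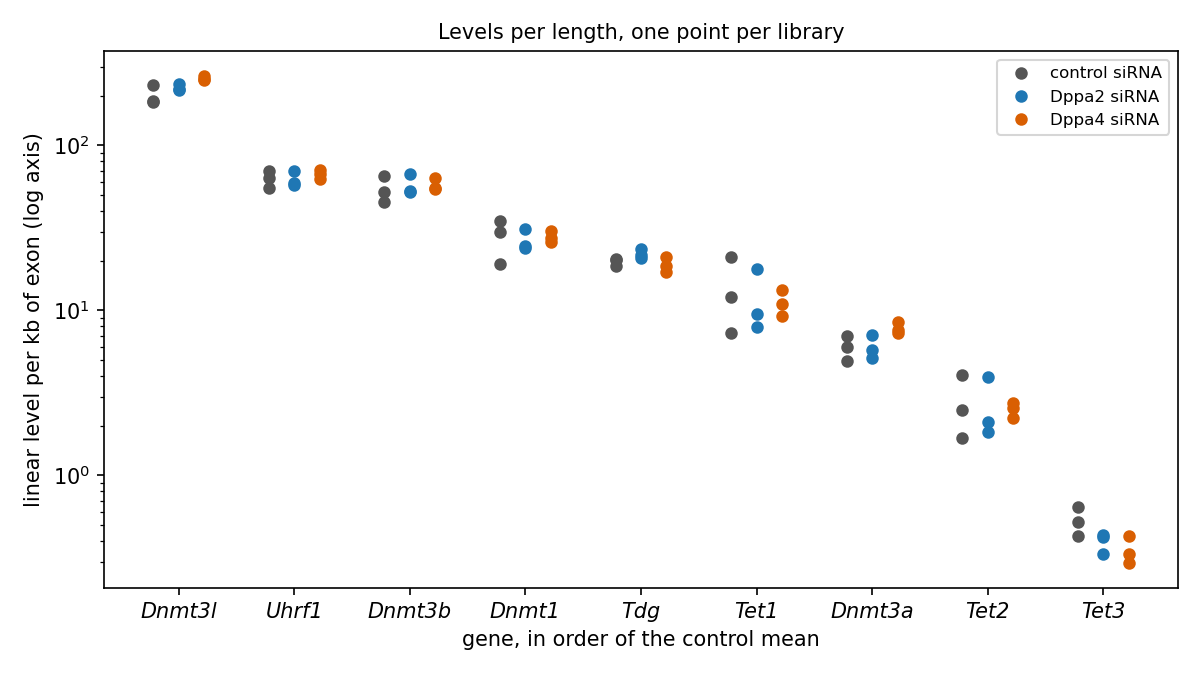
Linear expression per kb of merged exon on a log axis, with 1 point per library, for the 9 methylation genes in the order of their control siRNA means. Dnmt3l (199.6 in control siRNA) and Tet3 (0.530) mark the ends of the order in all 3 groups.

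Proportions within the families were taken from the same values per length and carry no test. Dnmt3a made up 9.65%, 10.3%, and 9.84% of Dnmt3a plus Dnmt3b in control siRNA libraries A, B, and C. The share was 9.01%, 9.56%, and 9.82% with Dppa2 siRNA and 11.9%, 12.2%, and 11.8% with Dppa4 siRNA. The Dppa4 siRNA libraries lay above all others, also with the longest transcript as the length, where they gave 16.5%, 16.9%, and 16.3% against at most 14.4% elsewhere. Tet1 made up 76.8% to 81.8% of the summed Tet level, Tet2 15.7% to 18.8%, and Tet3 1.91% to 5.46%, and with the longest transcript as the length 66.9% to 72.9%, 24.0% to 28.0%, and 2.40% to 6.76%.

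The summed Tet level was set over that of Dnmt3a plus Dnmt3b as a ratio of erasers to de novo writers. It was 0.357, 0.258, and 0.189 in control siRNA libraries A, B, and C. With Dppa2 siRNA it was 0.177, 0.30, and 0.205, and with Dppa4 siRNA 0.191, 0.22, and 0.228. The knockdown libraries fell almost wholly inside the control range, and the control siRNA libraries alone spread almost as widely as all 9.

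Other genes of the methylation machinery were taken as lists by known role. Over all tested genes 3.44% passed in each knockdown, and 15.7% and 18.0% had an unadjusted p below 0.05. Among 8 partners of maintenance methylation 0 passed in limma in either knockdown, with 0 at an unadjusted p below 0.05 with Dppa2 siRNA and 2 with Dppa4 siRNA, and median differences of -0.11 and -0.14. The largest difference of the list in either knockdown was that of Uhrf2, a relative of Uhrf1, at -0.33 with Dppa4 siRNA (limma adjusted p = 0.164), while with Dppa2 siRNA it was at -0.13 (limma adjusted p = 0.714) and the lowest of the list was -0.27. Among 11 recruiters and regulators of the methyltransferases 0 passed, with 1 and 3 at an unadjusted p below 0.05 and medians of -0.09 and -0.05. Dppa3, which protects the maternal genome from demethylation, had the largest difference there, with Dppa4 siRNA, and was at 3.55, 4.13, and 4.90 with control siRNA, 4.52, 3.42, and 4.06 with Dppa2 siRNA, and 3.46, 3.25, and 3.14 with Dppa4 siRNA. Its Dppa4 siRNA libraries lay below all control siRNA libraries, with a difference of -0.91 (limma adjusted p = 0.214), and its Dppa2 siRNA libraries overlapped with control siRNA, with a difference of -0.19 (limma adjusted p = 0.921), where the lowest of the list was -0.40.

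Proteins of the CpG-binding families gave no call either. Of 8 proteins of the methyl-CpG-binding families, among them Mbd3, which binds methylated CpG poorly in mammals, 0 passed in limma, and 0 had an unadjusted p below 0.05 in either knockdown, with medians of 0.12 and 0.10, and Zbtb4 had the largest difference in both, at 0.56 and 0.53 (limma adjusted p = 0.352 and 0.329). Of 5 CXXC proteins, which bind unmethylated CpG, 4 were tested and 0 passed, with 0 and 1 at an unadjusted p below 0.05 and medians of -0.09 and -0.02. Cxxc1 had the largest difference there with Dppa4 siRNA, at 0.35 (limma adjusted p = 0.168), and was at 0.07 with Dppa2 siRNA (limma adjusted p = 0.920), where the lowest of the list was -0.26. Of 16 S phase and mitosis genes 0 passed in limma, with 0 and 1 at an unadjusted p below 0.05 and medians of 0.00 and 0.09, and of 10 reference genes 0 passed, with 1 and 1 and medians of -0.02 and 0.04.

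Among genes listed for base excision and deamination, which also include Gadd45a, Gadd45b, and Ogt, 1 passed. Of 16 genes 1 rose and 0 fell in each knockdown, beside 1.16% and 1.10% of tested genes higher and 2.27% and 2.34% lower. At an unadjusted p below 0.05 there were 4 and 2, beside 15.7% and 18.0%, and the medians were 0.13 and 0.10. The gene that rose was Neil2, a glycosylase of oxidized bases. It was at 1.30, 1.62, and 1.35 with control siRNA, 2.45, 2.24, and 2.54 with Dppa2 siRNA, and 2.38, 2.09, and 2.21 with Dppa4 siRNA. All knockdown libraries lay above all control siRNA libraries. Neil2 rose by 0.99 with Dppa2 siRNA (SE 0.15, limma adjusted p = 0.00782) and by 0.80 with Dppa4 siRNA (SE 0.15, limma adjusted p = 0.0209). The Dppa4 siRNA call was lost without control siRNA library A or C and without any 1 of the Dppa4 siRNA libraries, where the difference was 0.73 to 0.87, and with only the 6 libraries compared (0.80). Its relative Neil1, named after its values were seen, also lay above control siRNA in all knockdown libraries but did not pass, with differences of 0.56 and 0.60 (limma adjusted p = 0.149 and 0.108).

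Germline genes known to be silenced by promoter methylation were read as a possible target of the enzymes. Of the 16 listed, 15 were tested (Asz1 was not). With Dppa2 siRNA 10 fell and 0 rose, with a median difference of -1.60, and with Dppa4 siRNA 9 fell and 0 rose, with a median of -1.19, beside 2.27% and 2.34% of all tested genes lower and medians of 0.02 and 0.03 over them. Sycp3, named after its values were seen, did not pass and lay above control siRNA with Dppa2 siRNA, by 0.35 (limma adjusted p = 0.183), and below it with Dppa4 siRNA, at -0.48 (limma adjusted p = 0.0703). Their summed linear level was 154.7, 160.9, and 161.7 in control siRNA libraries A, B, and C, between 74.5 and 79.9 with Dppa2 siRNA, and between 72.7 and 78.2 with Dppa4 siRNA. Without correction for length, Rpl10l had the highest linear level of the list in every library.

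Dazl, an RNA-binding protein of germ cells, was at 2.70, 2.13, and 2.13 with control siRNA, at -0.41, 0.31, and -0.03 with Dppa2 siRNA, and at -0.10, 0.40, and 0.09 with Dppa4 siRNA. The groups were far apart, and the difference was -2.36 with Dppa2 siRNA (limma adjusted p = 0.00107) and -2.19 with Dppa4 siRNA (limma adjusted p = 0.00185). Taf7l, a germ cell relative of a general transcription factor, fell in both knockdowns, with differences of -3.14 and -2.61. Sohlh2, a transcription factor of the germline, fell too, with differences of -2.39 and -2.23, as did Mael, a piRNA pathway protein, at -1.91 and -1.46. Tuba3a fell by 1.60 in both. Ddx4, a germ cell helicase, fell by 1.91 after Dppa2 knockdown and had a difference of -1.19 after Dppa4 knockdown that also passed (limma adjusted p = 0.0184), and the second call was lost without control siRNA library A or B or any 1 of the Dppa4 siRNA libraries, where the difference was between -1.0 and -1.27, and with no filter on low values (-1.19). Methylation itself was not measured, so whether it changed at these promoters was not tested. The study also reports Sohlh2 and Mael as lowered in its knockdown cells. From published ChIP-seq data it shows Dppa2 and Dppa4 bound at the promoters of both genes in pluripotent cells. The part of that binding in the falls given here was not tested.

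Promoters of both kinds of gene were read from RefSeq (GRCm38.p6), as 300 bases from 250 before to 50 after the start, which matched all 9 methylation genes and 15 of the 16 germline genes. The motif counted was CG, which reads the same on both strands, and the median over all 32851 promoters was 7 per promoter. Where a gene has several promoters, the one richest in CG was taken. Tet2 held 57 and Dnmt3a 47, counts reached by 0.152% and 1.44% of all promoters, while Dnmt3l held 6, reached by 56.4%. Dnmt1 and Uhrf1 held 33 each, Dnmt3b 30, Tdg 26, Tet3 22, and Tet1 17. Other promoters of the same genes held as few as 2 for Dnmt1, 3 for Dnmt3l, 12 for Uhrf1, and 18 for Dnmt3a, so counts of the richest promoter are not on a par with those over all single promoters. A match is a description and not a site of methylation. The promoters of Tet3 on chr6:83441629-83441928 (minus strand), the gene with the lowest expression among the enzymes, and of Dazl on chr17:50293571-50293870 (minus strand), with 28 CG (14.2% of promoters hold as many), are printed as those of an enzyme gene and a germline gene with each CG in capitals.
Tet3: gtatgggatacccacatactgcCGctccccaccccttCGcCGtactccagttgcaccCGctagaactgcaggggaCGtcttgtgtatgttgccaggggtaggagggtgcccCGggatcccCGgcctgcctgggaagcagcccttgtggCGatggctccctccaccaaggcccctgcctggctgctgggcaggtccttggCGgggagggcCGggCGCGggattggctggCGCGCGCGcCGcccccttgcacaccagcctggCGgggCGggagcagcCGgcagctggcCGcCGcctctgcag
Dazl: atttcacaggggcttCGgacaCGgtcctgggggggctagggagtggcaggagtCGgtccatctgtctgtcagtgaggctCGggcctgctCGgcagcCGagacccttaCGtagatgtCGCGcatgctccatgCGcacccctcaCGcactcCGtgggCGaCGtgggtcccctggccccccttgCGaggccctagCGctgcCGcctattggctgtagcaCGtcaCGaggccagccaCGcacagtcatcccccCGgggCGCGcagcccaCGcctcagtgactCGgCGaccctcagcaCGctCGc

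Markers of cell states were read in the same libraries. The shares over all tested genes were again 3.44% passing in each knockdown, and 15.7% and 18.0% at an unadjusted p below 0.05. Of 10 ESC markers 0 passed in limma in either knockdown, with 2 and 1 at an unadjusted p below 0.05 and medians of 0.10 and 0.07. Pou5f1 had the highest linear level of them, without correction for length. Control siRNA library C stood apart here, with a summed linear level of 2779 against 3206 to 3720 in the others and Klf4, named after its values were seen, at 5.36 against 5.94 to 6.51. The part of this library's state in its values of the methylation genes was not tested. Of 8 markers of the rare 2C-like ESC state found in the table, all 8 fell with both siRNAs, with medians of -6.17 and -6.31. Their summed linear level was 78.4, 78.4, and 77.3 in control siRNA libraries A, B, and C, 1.20, 0.625, and 1.27 with Dppa2 siRNA, and 1.07, 0.678, and 0.845 with Dppa4 siRNA. Without correction for length, Zscan4d had the highest level in the control siRNA libraries but not in all knockdown libraries. Zscan4f, Zscan4d, Tmem92, Gm8994, Zfp352, and Tcstv3 each had a fitted fall of 5.31 log2 units or more in both knockdowns. Some knockdown values were at the lowest value of their library, taken as no reads, such as Zscan4f at -4.49, -4.48, and -4.47 with Dppa2 siRNA. The sizes of these falls and the medians therefore depend in part on that floor. The part of this state in the differences of the methylation and germline genes was not tested.

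Of 8 primitive endoderm markers 0 passed with Dppa2 siRNA and 2 rose with Dppa4 siRNA, beside 1.16% and 1.10% of tested genes higher. At an unadjusted p below 0.05 there were 3 and 5, beside 15.7% and 18.0%, and the medians were 0.49 and 1.14. Of the 8, 2 did not overlap with control siRNA after Dppa2 knockdown and 6 after Dppa4 knockdown, all above it, beside 17.8% and 23.9% of tested genes. Gata6 rose by 1.44 with Dppa4 siRNA (limma adjusted p = 0.0132), a call that was lost without Dppa4 siRNA library A (1.43) or B (1.41), and Sox17 rose by 1.20 (limma adjusted p = 0.0348), a call that was lost without any 1 of the Dppa4 siRNA libraries or control siRNA library A or C (1.09 to 1.22), with only the 6 libraries compared, or with no filter (1.20 in both). The summed level of the markers was 38.2, 41.8, and 27.6 with control siRNA, 30.1, 39.0, and 37.5 with Dppa2 siRNA, and 41.8, 45.4, and 46.6 with Dppa4 siRNA. Without correction for length, most of it came from Col4a1. Gata6 and Sox17 were, like Dnmt3a and Dnmt3l, highest in the 3 Dppa4 siRNA libraries, and their part in those differences was not tested. Of 8 primed epiblast and early differentiation markers 7 were tested (Lhx1 was not) and 0 passed, with 3 and 1 at an unadjusted p below 0.05 and medians of -0.23 and 0.03. Of 8 trophoblast markers 7 were tested (Elf5 was not) and 0 passed, with 0 and 1 at an unadjusted p below 0.05 and medians of -0.04 and -0.06. Of 8 fibroblast markers 4 were tested, and Col1a2, Col3a1, Postn, and Lum, which define these cells, were not. Pdgfrb was the 1 that rose, by 1.08 with Dppa2 siRNA (limma adjusted p = 0.00718) and by 0.90 with Dppa4 siRNA (limma adjusted p = 0.0173), and the second call was lost without control siRNA library A or B or any 1 of the Dppa4 siRNA libraries (0.79 to 0.97) and with only the 6 libraries compared (0.90). Fbn1, named after its values were seen, was at 1.53, 0.99, and 0.75 in control siRNA libraries, at -0.55, 0.14, and -0.62 in Dppa2 siRNA libraries, and at -0.38, -0.74, and 0.20 in Dppa4 siRNA libraries. Its knockdown libraries all lay below control siRNA, and the differences of -1.43 (limma adjusted p = 0.0513) and -1.40 (limma adjusted p = 0.0565) did not pass. The median of the tested fibroblast markers was 0.04 and 0.11. Their summed level was 10.7 to 12.3 in control siRNA libraries, 11.6 to 13.2 in Dppa2 siRNA libraries, and 11.2 to 13.9 in Dppa4 siRNA libraries. Without correction for length, Thy1 had the highest level of them except in Dppa2 siRNA libraries A and B, where Pdgfrb had it.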

How the data were processed

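The authors trimmed reads with Trim Galore, aligned them to GRCm38 with HISAT2 2.0.5, quantitated mRNA strand-specifically in SeqMonk, matched the distributions of the libraries, and deposited normalized log2 expression. These values are not counts, so limma 3.58.1 (R 4.3.3) on the log2 values of all 9 libraries, with the siRNA group as its term and an intensity trend, took the place of the authors' count model. P-values were adjusted over 14601 genes (Benjamini-Hochberg), and an intensity difference filter used the 1% of genes nearest in expression. Reads per library (16.8 to 40.2 Mreads) were estimated from the order of the distinct values and are approximate. Lengths, positions, and GC content came from the GENCODE annotation of GRCm38, and 89.5% of tested genes had both. All 9 methylation genes were named. In each other list the genes past the threshold were named, up to 6 by smallest adjusted p, or, in lists of methylation genes with none, the gene with the largest difference in either knockdown. The members and lists were chosen with earlier results of these data known. Alternatives were no filter or a stricter one on low values, a pseudocount of 1, median and reference gene centring, no trend, only the 6 libraries compared, a replicate block, a length and GC correction, an adjusted intensity filter, another gene length, and each library left out. The limma fit was also run on simulated data, and the outcome is not given here.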

Additional observations from a re-analysis of the deposited data

How the results depend on the processing

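Of the values computed for the 9 methylation genes under the alternatives, 387 kept their direction and their side of the threshold, 28 turned sign, and 3 newly passed, and of those for the other named genes 723 kept both, 46 no longer passed, and 3 turned sign. The length and GC corrections were chosen after the data were seen. With the correction 1 methylation gene (Dnmt3a) passed in limma and as high-confidence with Dppa4 siRNA. Over all genes 749 of 13075 passed and 372 were high-confidence there, against 502 and 284 of 14601 without the correction. Tet2 turned to 0.05 with Dppa2 siRNA and 0.10 with Dppa4 siRNA, and the cause of either change was not tested. Reference gene centring turned Dnmt3a with Dppa2 siRNA to -0.0034. Without the filter on low values all 25965 genes were tested, 9140 passed in limma (8245 of them higher) and 457 were high-confidence with Dppa2 siRNA, and 5 passed between the knockdowns. Of the 9140, 7462 were at the lowest value of every library, taken as no reads, so their values were set by the matching of distributions. With only the 6 libraries compared 232 passed and 150 were high-confidence with Dppa2 siRNA, and 298 and 187 with Dppa4 siRNA, with fewer libraries in the fit. With the stricter filter 184 genes were high-confidence with Dppa2 siRNA, and with an adjusted intensity filter 92 and 73 in the 2 knockdowns.

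Replicate letters did not pair the libraries, since 2 of 9 same-letter pairs had a correlation of deviations over 0.1, in a range of -0.585 to 0.367. With the letter as a replicate block 238 genes passed with Dppa2 siRNA, 212 passed and 176 were high-confidence with Dppa4 siRNA, and 1 passed between the knockdowns. With the replicate block and the length and GC correction 319 passed with Dppa2 siRNA, 1 between the knockdowns, and 1 methylation gene (Dnmt3a, limma adjusted p = 0.0308) passed and was high-confidence with Dppa4 siRNA, while Tet2 was at 0.05 and 0.10. Over all 13075 genes then tested, 353 passed and 245 were high-confidence with Dppa4 siRNA.

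Leaving out each of the 9 libraries in turn, 120 to 413 genes passed and 100 to 232 were high-confidence with Dppa2 siRNA, both lowest without control siRNA library B. With Dppa4 siRNA there were 149 to 496, lowest without control siRNA library A or B, and 115 to 279, lowest without library A, and 1 to 3 passed between the knockdowns. Of the methylation genes 0 to 1 passed and 0 to 1 were high-confidence with Dppa4 siRNA. The 1 was Dnmt3l without control siRNA library C, where 308 of all 14432 tested genes passed and 185 were high-confidence. Over the libraries left out in turn, the differences with Dppa2 siRNA ranged from -0.31 to 0.13 for Dnmt1, -0.12 to 0.13 for Dnmt3a, -0.03 to 0.23 for Dnmt3b, -0.11 to 0.06 for Uhrf1, -0.53 to 0.24 for Tet1, -0.39 to 0.27 for Tet2, -0.52 to 0.16 for Dppa3, and -0.06 to 0.16 for Cxxc1. With Dppa4 siRNA they ranged from -0.22 to 0.21 for Dnmt1, -0.02 to 0.24 for Dnmt3b, -0.53 to 0.23 for Tet1, -0.35 to 0.29 for Tet2, and -0.15 to 0.0049 for Tdg. The calls lost were 5, 3, and 3 without control siRNA libraries A, B, and C, 1 each without Dppa2 siRNA libraries B and C, and 6, 6, and 5 without Dppa4 siRNA libraries A, B, and C. With only the 6 libraries compared 4 were lost (Neil2, Sox17, and Pdgfrb with Dppa4 siRNA and Aire with Dppa2 siRNA), 5 with the replicate block (those and Ddx4 with Dppa4 siRNA), 4 with the block and the correction (Neil2, Sox17, and Aire in both knockdowns), 2 with no filter (Ddx4 and Sox17), and 1 with the correction (Aire with Dppa2 siRNA). Depth limits Tet3 most, with 161 to 401 estimated reads per library.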
